A study of Lactuca sativa with 53 samples.

Results

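LsAP2 (Lsat_1_v5_gn_3_89681.2, also LsAP2.11) and its close relatives LsAP2-like1 (Lsat_1_v5_gn_4_165341.1, LsAP2.13) and LsAP2-like2 (Lsat_1_v5_gn_2_85920.1, LsAP2.07) are lettuce genes of the AP2 subfamily of transcription factors. They were picked by name from the study's gene table, by a rule that uses no expression value though earlier results of these data were known, and are 3 of the 24635 genes listed in at least 1 of the deposited expression tables. Both tables list all 3, and all 3 passed the filter on low values in both. In short, LsAP2-like1 rose about 9-fold after 24 h of cold in both cultivars tested in the cold. In Salinas, another cultivar, no comparison of it with the control passed the test under salt, heat or drought. LsAP2 fell there under salt and under heat, and LsAP2-like2 fell under salt. The levels of LsAP2 and LsAP2-like2 differed between the cultivars of the cold experiment in opposite directions.

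The genes take their name from Arabidopsis APETALA2, a DNA-binding protein that carries a repeated AP2 domain, specifies sepals and petals in the flower and delays flowering. APETALA2 and the related TOE proteins of Arabidopsis are held down by the microRNA miR172, which acts on their messenger RNA. In lettuce, LsAP2 is known as a regulator of leaf shape.

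The study grew lettuce (Lactuca sativa) at 20 °C and sequenced the RNA of 53 libraries. In the cultivar Salinas, 18-day-old plants at 0 h served as the control, and treated plants were sampled after 5 h, 24 h and 48 h of salt (250 mM NaCl), heat (34 °C) or drought (no further water after the pots were drained), with 3 libraries in each of the 10 groups. In the cultivars PI 284702 and UC96US23, warm-grown plants at 0 h were set against plants held at 4 °C, which were sampled at 4 h, 24 h and 7 d, with 2 libraries in PI 284702 at 0 h and 3 in each of the other 7 groups. All plants carry the label 18 days and the tissue label aerial tissue, while the study's methods speak of leaves, and defining markers of leaf were not analysed here.

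By the study's methods, plants under treatment received less light than during growth, so that stress and light cannot be told apart. The methods give the least light for cold, but the study took its own cold values from another series, and the labels of PI 284702 and UC96US23 give no light for the cold. The control was taken only at 0 h, so stress and time of day cannot be told apart at 5 h or 4 h, nor cold and plant age at 7 d. Cold was applied only to PI 284702 and UC96US23, and salt, heat and drought only to Salinas. A difference between cold and the other stresses therefore cannot be told apart from one of cultivar or normalization. Each library held from 17570370 to 29521313 reads assigned to genes, of which the 3 genes had between 160 and 4428 each. In RNA of whole tissue, fewer cells that express a gene and less RNA per cell cannot be told apart. The study names triplicate biological samples for Salinas. For the other cultivars the labels say nothing on separate plants, so those p-values measure the spread between these libraries, which may be technical.

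The study's gene table places the 3 genes on different linkage groups of the lettuce genome version 8, all on the plus strand. LsAP2 lies on linkage group 3 from 133984861 to 133988210 with 9 exons, LsAP2-like1 on linkage group 4 from 332994977 to 332999585 with 10 exons, and LsAP2-like2 on linkage group 2 from 162079346 to 162082288 with 10 exons. The exons add up to 1497 bases in LsAP2, 1497 in LsAP2-like1 and 1548 in LsAP2-like2. All are multiples of 3 and were taken here as a coding length without untranslated ends. Reads were counted per gene, and whether untranslated ends move the levels per coding length was not tested. Each has 2 AP2 domains and its best Arabidopsis match in AT4G36920, which is APETALA2. Exons 2 to 7 are of 26, 31, 88, 146, 45 and 92 bases in all 3 genes, and no other of the 224 family genes in that table has this run of 6 exon lengths. LsAP2.04 and LsAP2.17 share its first 5 lengths. The genes therefore differ in length only in the first exon and in the exons after the run. The family gene nearest to each is a gene of subgroup II that lies before it on the same strand, LsERF013 at 1088014 bases from LsAP2, LsERF016 at 1213604 bases from LsAP2-like1 and LsERF012 at 300825 bases from LsAP2-like2.

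Expression values were CPM (read counts per 1000000) of a scaled library size in Salinas (scaled CPM) and plain CPM in PI 284702 and UC96US23. The tables were normalized separately and no level was tested across them. A gene is said here to pass, to rise or to fall where limma's test on log2(value + 0.5) gave an adjusted p of 0.01 or less over all genes tested in that comparison, and the fold changes are on that scale. An interval is the 95% interval of the log2 difference.

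In unstressed Salinas plants LsAP2-like1 was the highest of the 3 and LsAP2-like2 the lowest. LsAP2-like1 stood at 53.7, 62.8 and 59.9 scaled CPM in the 3 control libraries, LsAP2 at 46.3, 47.8 and 46.4, and LsAP2-like2 at 16.9, 18.7 and 20.0. Per kilobase of coding length the control means were 39.3, 31.3 and 12.0 scaled CPM in that order. By that measure LsAP2-like1 ranked 2 and LsAP2 ranked 4 of the 23 AP2 subfamily genes listed, and LsAP2-like2 ranked 8. The order LsAP2-like1, LsAP2, LsAP2-like2 per coding length held in all 30 Salinas libraries, stressed or not.

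LsAP2 and LsAP2-like2 fell under salt at 24 h and 48 h. LsAP2 measured 43.0, 43.8 and 45.6 scaled CPM at 5 h, 34.7, 30.1 and 28.6 at 24 h, and 26.1, 22.9 and 24.8 at 48 h. All libraries of the later times lay below all 3 controls, as did those of 35.2% of all genes tested at 24 h and 41.1% at 48 h. The log2 fold change was -0.58 ± 0.10 (SE) at 24 h (adjusted p = 7.59e-06, limma) and -0.92 ± 0.10 at 48 h (adjusted p = 3.14e-09), a 1.89-fold fall. At 5 h it was -0.08 and did not pass (interval -0.28 to 0.11). A lower log2 fold change than that of LsAP2 was found in 24.4% of all genes tested at 24 h and 23.3% at 48 h. By read counts over the genes, the salt 24 h replicates stood far apart. Their mean chi-square per gene was 75.6 between replicates 1 and 2, the largest of the series, 41.5 between 1 and 3 and 29.7 between 2 and 3.

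LsAP2-like2 measured 16.4, 15.2 and 18.3 scaled CPM after 5 h of salt, 12.7, 13.5 and 11.7 after 24 h, and 10.2, 11.5 and 9.98 after 48 h. Its libraries at 24 h and 48 h lay below all controls, and those at 5 h overlapped them. It fell by 0.53 on the log2 scale at 24 h (SE 0.09, adjusted p = 6.27e-06, limma) and by 0.78 at 48 h (SE 0.09, adjusted p = 8.09e-09). In the comparisons with the control at these times, 30.7% and 36.7% of all genes tested fell, so a fall under salt was common. A lower log2 fold change than that of LsAP2-like2 was found in 26.1% of them at 24 h and 26.1% at 48 h. LsAP2-like1 differed less, with 64.5, 50.3 and 55.3 scaled CPM at 24 h and 52.1, 49.4 and 53.6 at 48 h, where its log2 fold change was -0.18 (interval -0.40 to 0.04, adjusted p = 0.119, limma). That value changed with another scaling. When the sum of every library was set to 1000000, the median gene moved by -0.51 at 48 h of salt and LsAP2-like1 by -0.73, which passed.

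LsAP2 fell at every time of heat sampled. It measured 20.4, 24.6 and 30.5 scaled CPM at 5 h, 31.0, 32.9 and 36.1 at 24 h, and 37.1, 32.4 and 35.1 at 48 h, and none of these 9 libraries reached the lowest control. All libraries lay below the controls for 25.8% of all genes tested after 5 h of heat, 31.1% after 24 h and 34.4% after 48 h. The fall was largest at 5 h, by 0.90 on the log2 scale (SE 0.10, adjusted p = 6.88e-08, limma), which is 1.87-fold. The log2 fold change was -0.49 at 24 h (adjusted p = 0.000185) and -0.42 at 48 h (adjusted p = 0.000644). Of all genes tested, 14.4% fell at 5 h, 18.5% fell at 24 h and 22.2% fell at 48 h. At 5 h only 777 of the 23231 genes tested, or 3.34%, had a lower log2 fold change than LsAP2. At 24 h and 48 h of heat this share was 16.4% and 22.7%.

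LsAP2-like1 and LsAP2-like2 passed at no time of heat, except LsAP2-like1 at 24 h with only the groups compared in the fit (-0.25, adjusted p = 0.00963, limma). LsAP2-like1 spread widely at 5 h, with 45.7, 53.2 and 66.4 scaled CPM, and its heat replicate 1 was also the lowest for LsAP2. By read counts over the genes, however, replicate 3 of this group stood furthest apart. Its mean chi-square per gene was 32.1 against replicate 1 and 32.1 against replicate 2, beside 13.6 between replicates 1 and 2. The log2 fold changes of LsAP2-like1 were -0.11 at 5 h (interval -0.33 to 0.11), -0.25 at 24 h (-0.47 to -0.03, adjusted p = 0.0530, limma) and -0.10 at 48 h (-0.32 to 0.12). LsAP2-like2 measured 20.3, 19.7 and 20.3 scaled CPM at 5 h, 21.3, 20.7 and 22.0 at 24 h, and 17.2, 19.7 and 19.3 at 48 h. Its log2 fold changes were 0.12 (interval -0.06 to 0.30), 0.20 (0.02 to 0.38) and 0.02 (-0.16 to 0.19).

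None of the 3 genes passed at any time of drought, where few genes did at the first times (2.38% of all genes tested at 5 h, 0.327% at 24 h and 13.9% at 48 h). LsAP2 measured 54.4, 56.1 and 53.4 scaled CPM at 5 h, above all controls, then 48.2, 49.0 and 42.9 at 24 h, and 39.1, 39.6 and 39.3 at 48 h, below all controls. Its log2 fold changes were 0.22 at 5 h (interval 0.02 to 0.42, adjusted p = 0.202, limma), 0.00 at 24 h (-0.20 to 0.19) and -0.25 at 48 h (-0.45 to -0.05, adjusted p = 0.0615). Libraries that did not overlap the controls were common, with 18.8% of all genes tested higher in this way at 5 h, 12.9% higher at 24 h and 21.8% lower at 48 h. LsAP2-like2 measured 23.6, 21.9 and 22.6 scaled CPM at 24 h, above all controls, with a log2 fold change of 0.29 (interval 0.11 to 0.47, adjusted p = 0.0977, limma), and lay between 17.4 and 23.9 at the other times. LsAP2-like1 lay between 58.6 and 73.2 scaled CPM over the 9 drought libraries, and its log2 fold changes were 0.18 (interval -0.04 to 0.40), 0.17 (-0.05 to 0.39) and 0.14 (-0.08 to 0.36).

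**Figure D1:**
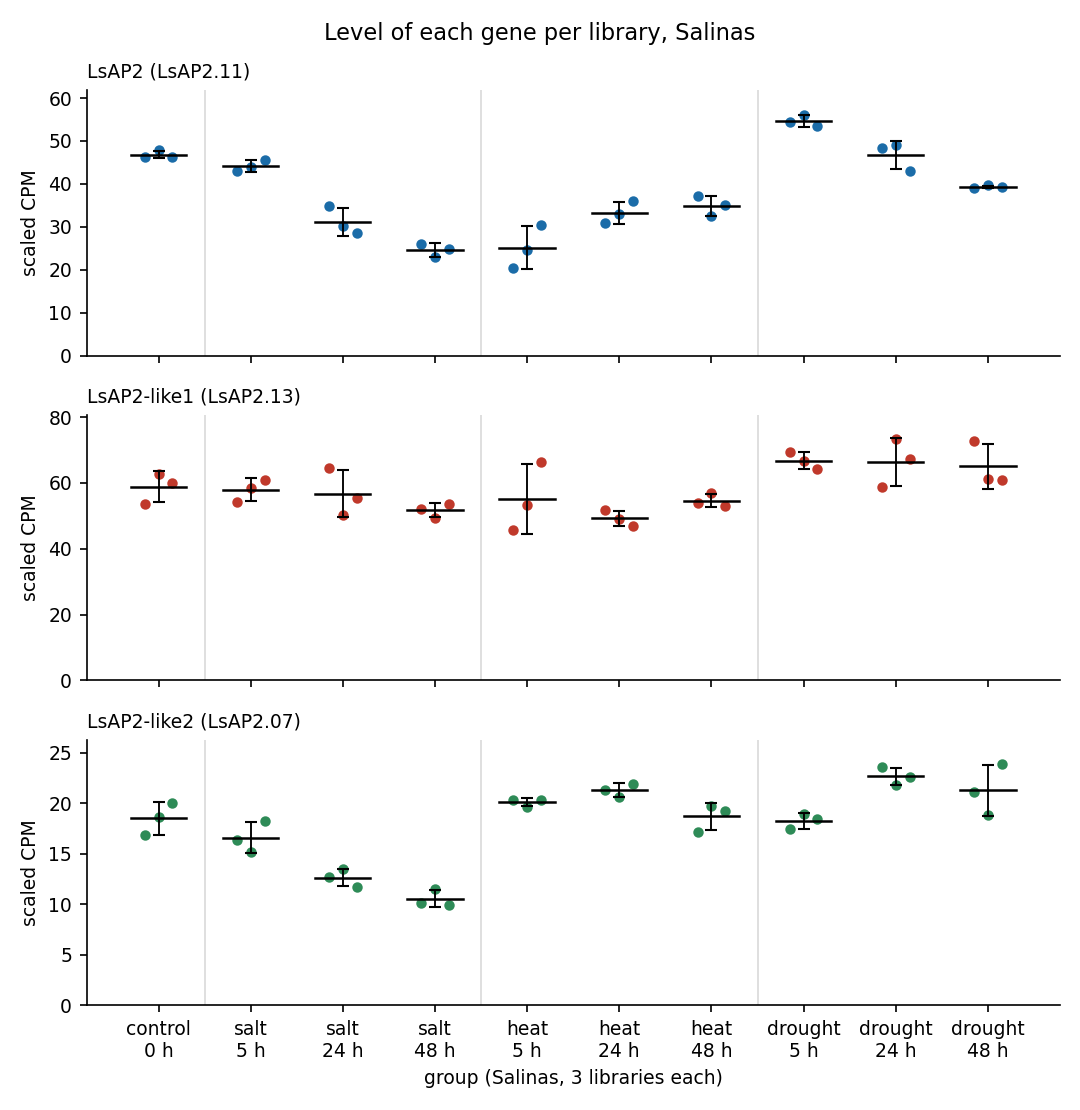
Scaled CPM (vertical axis, from 0) of each gene in the 30 Salinas libraries, by group; points are libraries, horizontal bars are means of 3 and error bars are 1 SD. LsAP2 falls from 46.8 in the control to 24.6 at 48 h of salt and 25.2 at 5 h of heat, LsAP2-like2 falls to 10.6 at 48 h of salt, and LsAP2-like1 keeps group means between 49.3 and 66.8.

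Stresses sampled at the same time were also compared with each other. At 5 h LsAP2 was lower under heat than under drought by 1.12 on the log2 scale (SE 0.10), a 2.18-fold difference, and higher under salt than under heat by 0.82. Both passed, where 17.2% of all genes tested were lower in the first comparison and 23.4% higher in the second. The difference between heat and drought was the only comparison of these genes in Salinas that also reached a 2-fold change, as did 3.31% of all genes in that direction. Without heat 5 h replicate 1, the lowest library, it no longer reached 2-fold. The number of such comparisons was 2 with a pseudocount of 0.1, with libraries centred on their median gene or with edgeR, and 9 with libraries scaled to 1000000. At 24 h LsAP2-like2 was lower under salt than under heat by 0.73 and than under drought by 0.82, LsAP2 was lower under salt and under heat than under drought, by 0.58 and by 0.48, and LsAP2-like1 was lower under heat than under drought by 0.42 (adjusted p = 0.00232, limma), all on the log2 scale. Of all genes tested, 30.7% were lower under salt than under heat at 24 h, 31.4% under salt than under drought and 17.1% under heat than under drought. The call for LsAP2-like1 was lost without drought 24 h replicate 2 (-0.35, adjusted p = 0.0208) or heat 24 h replicate 3 (-0.39, adjusted p = 0.0129).

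Salt stood below heat at 48 h, by 0.80 on the log2 scale in LsAP2-like2 and 0.50 in LsAP2, where 38.4% of all genes tested were lower. At 5 h LsAP2-like2 was lower under salt than under heat by 0.27 (adjusted p = 0.00950, limma), where 23.6% of all genes were lower, a call that was lost in 5 of 8 alternative fits and without any 1 of the heat 5 h replicates or salt 5 h replicates 1 and 2 (highest adjusted p = 0.0668). At 48 h salt stood below drought for all 3 genes, by 0.67 on the log2 scale in LsAP2, 0.98 in LsAP2-like2 and 0.32 in LsAP2-like1 (adjusted p = 0.00793, limma), in a comparison where 36.6% of all genes tested were lower. The last of these did not pass with the replicate number as a block (adjusted p = 0.0107) nor with any 1 of drought 48 h replicate 1 or the salt 48 h replicates left out (highest adjusted p = 0.0634).

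Ordered by mean level, the Salinas groups of LsAP2 ran from 5 h of drought at 54.7 ± 1.37 scaled CPM (SD, n = 3) to 48 h of salt at 24.6 ± 1.60, and libraries of neighbouring groups in that order overlapped in 6 of 9 pairs. The gaps lay after 5 h of drought, between 5 h of salt at 44.1 ± 1.33 and 48 h of drought at 39.3 ± 0.268, and between the latter and 48 h of heat at 34.9 ± 2.33. LsAP2-like2 ran from 24 h of drought at 22.7 ± 0.859 to 48 h of salt at 10.6 ± 0.830, with overlap in 7 of 9 pairs and gaps only on each side of 24 h of salt at 12.6 ± 0.859. LsAP2-like1 ran from 5 h of drought at 66.8 ± 2.55 to 24 h of heat at 49.3 ± 2.33, and every neighbouring pair overlapped. Each order was set by these same means, and such gaps were not counted over all genes, so they are description only.

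In the cold LsAP2-like1 rose in both cultivars and peaked at 24 h. In PI 284702 it measured 18.8 and 17.4 CPM at 0 h, 33.3, 38.6 and 33.9 at 4 h, 138, 187 and 164 at 24 h, and 60.1, 62.8 and 60.2 at 7 d. In UC96US23 it measured 21.2, 22.5 and 21.6 CPM at 0 h, 33.0, 21.9 and 39.9 at 4 h, 203, 210 and 193 at 24 h, and 50.2, 58.9 and 57.9 at 7 d. All libraries at 24 h and 7 d stood above all libraries at 0 h of the same cultivar. All libraries stood above 0 h in PI 284702 for 31.0% of all genes tested at 24 h and 42.6% at 7 d, and in UC96US23 for 27.1% and 36.2%.

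The log2 rise of LsAP2-like1 at 24 h was 3.12 ± 0.16 (SE) in PI 284702 (adjusted p = 8.58e-13, limma) and 3.18 ± 0.14 in UC96US23 (adjusted p = 6.10e-14), which is 8.72-fold and 9.09-fold. Of all genes tested, 15.4% rose at 24 h in PI 284702 and 17.7% in UC96US23, and 5.90% and 6.23% also reached 2-fold. Only 115 of the 23443 genes tested, or 0.491%, had a higher log2 fold change in PI 284702, and 105, or 0.448%, in UC96US23. At 7 d it stood 1.73 ± 0.16 above 0 h in PI 284702 and 1.33 ± 0.14 in UC96US23, after a fall from 24 h to 7 d by 1.40 and by 1.85 on the log2 scale (adjusted p = 1.15e-07 and 2.47e-09, limma). Of all genes tested, 23.8% and 24.3% stood above 0 h at 7 d in these cultivars, 6.01% and 4.97% by at least 2-fold, and 9.19% and 8.53% fell from 24 h to 7 d.

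At 4 h LsAP2-like1 rose by a log2 fold change of 0.94 ± 0.16 in PI 284702 (adjusted p = 0.000142, limma), where 7.23% of all genes rose. In UC96US23 at 4 h it was 0.49 ± 0.14 (adjusted p = 0.00962), in a comparison where 11.3% of all genes rose. This last call was lost in 5 of 8 alternative fits and without any 1 of 5 of the 6 libraries compared, with an adjusted p between 1.58e-05 and 0.185 over all of them. UC96US23 4 h replicate 2, with 21.9 CPM, lay among the 0 h libraries, and it was the lowest of its group for all 3 genes. Without it the log2 fold change was 0.72 (adjusted p = 1.58e-05).

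LsAP2 rose in the cold in PI 284702. It measured 14.6 and 10.9 CPM at 0 h, 20.6, 21.3 and 23.8 at 4 h, 21.5, 19.1 and 15.6 at 24 h, and 26.4, 23.8 and 25.8 at 7 d, so that every cold library exceeded both at 0 h. With only 2 libraries at 0 h such separation was common, at 23.7% of all genes tested at 4 h, beside the 31.0% at 24 h and 42.6% at 7 d above. The log2 fold change was 0.77 ± 0.16 (SE) at 4 h (adjusted p = 0.00139, limma) and 0.97 ± 0.16 at 7 d (adjusted p = 3.80e-05), in comparisons where 7.23% and 23.8% of all genes rose. At 24 h it was 0.54 ± 0.16 and did not pass (adjusted p = 0.0106), though it ranged from 0.34 to 0.74 with 1 library left out and passed without 0 h replicate 1 (adjusted p = 0.00650) or 24 h replicate 3 (adjusted p = 0.00441). The call at 4 h was lost with only the groups compared in the fit (adjusted p = 0.0273), and without PI 284702 0 h replicate 2, the lower of them, the value at 4 h was 0.57 (adjusted p = 0.0611).

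In UC96US23 no cold comparison of LsAP2 passed. The gene measured 26.3, 28.0 and 32.3 CPM at 0 h, 34.8, 27.6 and 44.8 at 4 h, 28.3, 29.6 and 26.7 at 24 h, and 32.4, 36.2 and 30.4 at 7 d, and each cold group overlapped the group at 0 h. The log2 fold changes were 0.28 (interval -0.02 to 0.58), -0.03 (-0.33 to 0.27) and 0.19 (-0.11 to 0.49).

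LsAP2-like2 rose in the cold at 1 time, in PI 284702. In PI 284702 it measured 18.6 and 17.9 CPM at 0 h, 24.5, 19.6 and 22.9 at 4 h, 29.2, 28.3 and 24.1 at 24 h, and 25.2, 22.3 and 25.7 at 7 d. All cold libraries lay above those at 0 h, a separation shared by 23.7% to 42.6% of all genes, and only the rise at 24 h passed, with a log2 fold change of 0.56 ± 0.15 (SE, adjusted p = 0.00621, limma). It did not pass with libraries centred on their median gene (0.45, adjusted p = 0.0119), with only the groups compared in the fit (adjusted p = 0.0169), or with any 1 of PI 284702 0 h replicates 1 and 2 or 24 h replicates 1 and 2 left out (highest adjusted p = 0.0505). In UC96US23 it measured 12.1, 13.1 and 11.2 CPM at 0 h and between 8.71 and 17.3 in the cold. No time passed there, and the log2 fold changes were -0.10 at 4 h (interval -0.39 to 0.18), 0.23 at 24 h (-0.05 to 0.52) and 0.29 at 7 d (0.00 to 0.57).

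Ordered by mean CPM, the 4 groups of UC96US23 stood above the 4 of PI 284702 for LsAP2, from 35.7 ± 8.66 (SD, n = 3) at 4 h in UC96US23 to 12.8 ± 2.64 (n = 2) at 0 h in PI 284702, and libraries of neighbouring groups overlapped in 5 of 7 pairs. For LsAP2-like2 the order of the cultivars was the opposite, from 27.2 ± 2.75 at 24 h in PI 284702 to 11.4 ± 2.39 at 4 h in UC96US23, with overlap in 5 of 7 pairs and none between the cultivars. LsAP2-like1 was ordered by time, from 202 ± 8.10 at 24 h in UC96US23 to 18.1 ± 1.03 at 0 h in PI 284702, and the pairs that overlapped were those on each side of 4 h in UC96US23. The highest group mean was 11.1 times the lowest for LsAP2-like1, 2.80 times for LsAP2 and 2.38 times for LsAP2-like2. As in Salinas, each order was set by the same means, and gaps in it were not counted over all genes.

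**Figure D2:**
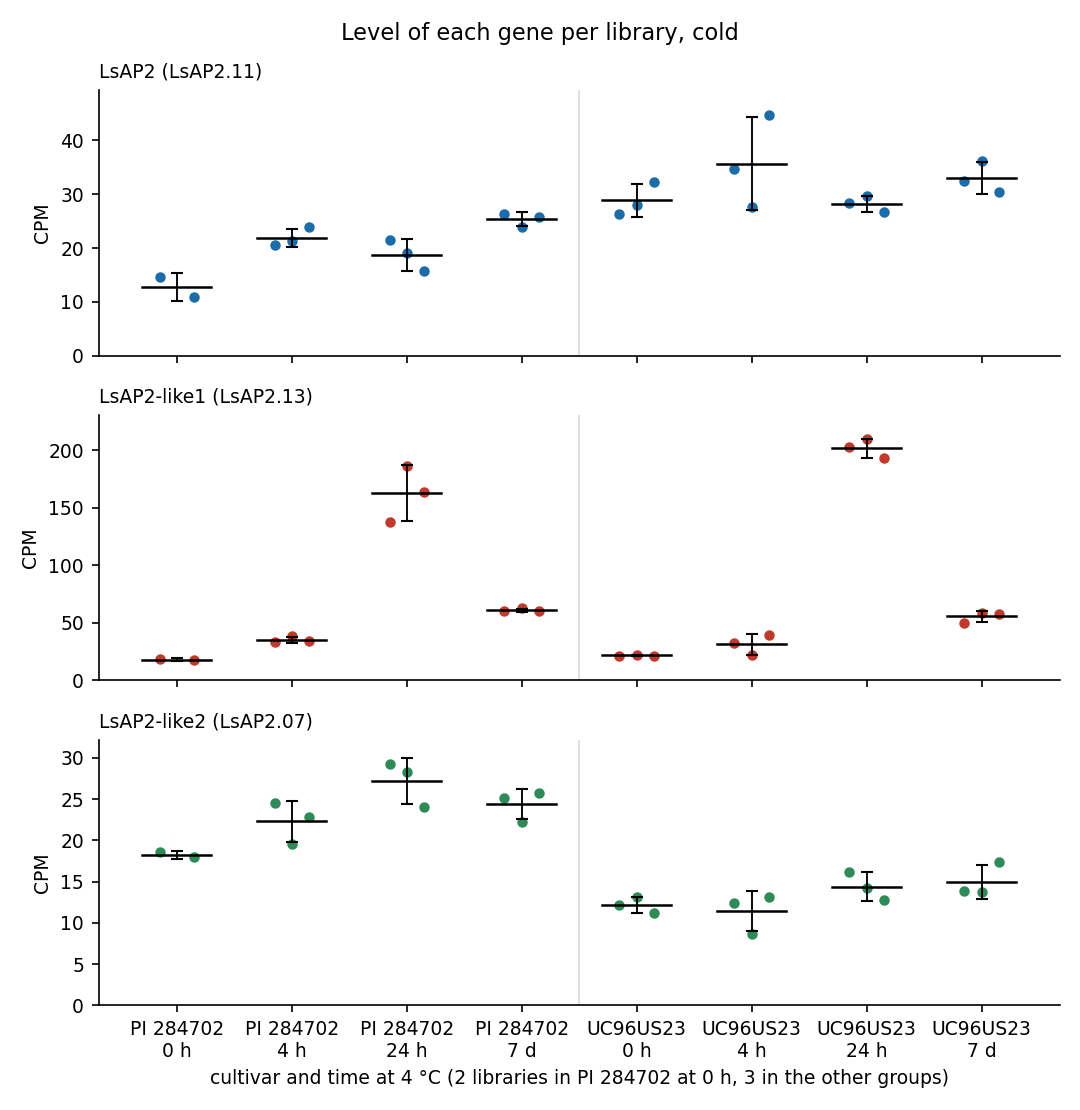
CPM (vertical axis, from 0, different range in each panel) of each gene in the 23 libraries of PI 284702 and UC96US23, by time at 4 °C; points are libraries, horizontal bars are means and error bars are 1 SD. LsAP2-like1 reaches a mean of 163 CPM in PI 284702 and 202 in UC96US23 at 24 h, from 18.1 and 21.8 at 0 h.

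**Figure D3:**
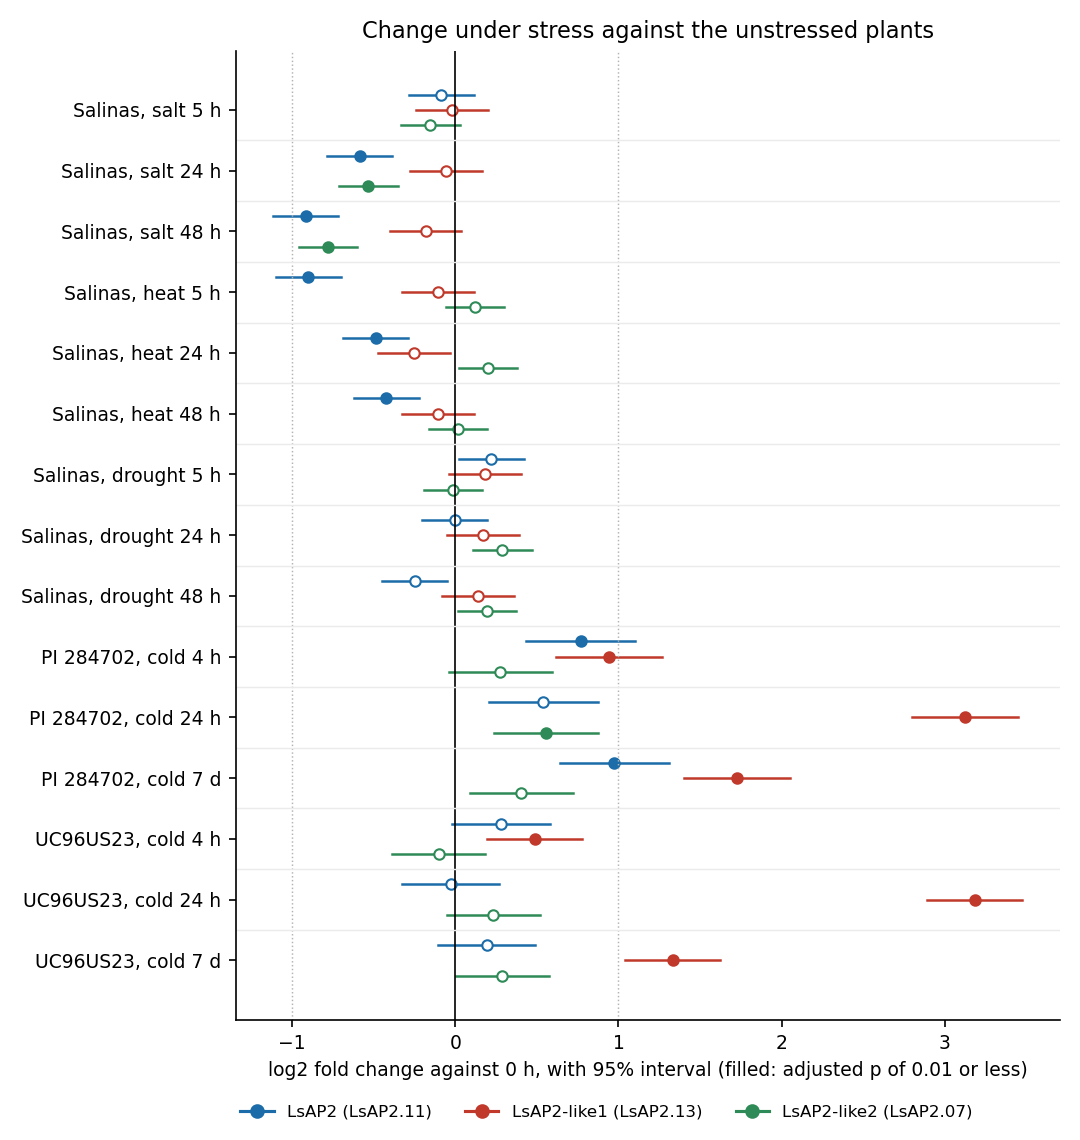
Log2 fold change against 0 h (horizontal axis) of each gene in the 9 Salinas comparisons and the 6 cold comparisons, with the 95% interval as a line; filled points passed (adjusted p of 0.01 or less) and dotted lines mark a 2-fold change. LsAP2 lies left of 0 in 5 filled comparisons, LsAP2-like2 in 2, and LsAP2-like1 is filled only in the 6 cold comparisons.

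Over all comparisons with unstressed plants, LsAP2 fell in 5 of 9 in Salinas and rose in 2 of 6 in the cold. LsAP2-like2 fell in 2 of 9 and rose in 1 of 6. LsAP2-like1 changed in 0 of 9 in Salinas, with 1 at an unadjusted p under 0.05 and 0 of 9 by edgeR's test, but passed at 48 h of salt with libraries scaled to 1000000 and at 24 h of heat with only the groups compared, and rose in all 6 in the cold, of which 4 reached 2-fold. With only the groups compared, the rise of LsAP2 in PI 284702 at 4 h was lost (adjusted p = 0.0273, limma). So were those of LsAP2-like2 in PI 284702 at 24 h (adjusted p = 0.0169) and LsAP2-like1 in UC96US23 at 4 h (adjusted p = 0.185). Where these genes fell, 14.4% to 36.7% of all genes tested fell, and where they rose, 7.23% to 24.3% rose. How many other genes reached such tallies was not counted. All 9 Salinas comparisons share the same control libraries, and the cold comparisons of a cultivar share those at 0 h.

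The cultivars differed in LsAP2 and in LsAP2-like2, in opposite directions. At 0 h LsAP2 was higher in UC96US23 by 1.15 ± 0.16 (SE) on the log2 scale (adjusted p = 8.72e-06, limma), which is 2.23-fold, while 9.29% of all genes tested were higher there. The difference was 0.67 at 4 h (adjusted p = 0.000719) and 0.59 at 24 h (adjusted p = 0.00269), where 16.5% and 11.7% of all genes were higher. A difference of 0.37 at 7 d did not pass (interval 0.07 to 0.67, adjusted p = 0.0453). All libraries of UC96US23 lay above all libraries of PI 284702 at each of the 4 times, and 29.6% of all genes tested stood apart in this way at 0 h, 25.5% at 4 h, 23.2% at 24 h and 24.8% on day 7. With a fit of only those groups, the call at 4 h was lost (adjusted p = 0.0182) and 7 d passed (adjusted p = 0.00822). The call at 24 h was lost without PI 284702 24 h replicate 3 (adjusted p = 0.0246) and without UC96US23 24 h replicate 2 (adjusted p = 0.0137).

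LsAP2-like2 was lower in UC96US23 at all 4 times, by 0.57 on the log2 scale at 0 h (adjusted p = 0.00721, limma), 0.95 at 4 h (adjusted p = 8.88e-06), 0.90 at 24 h (adjusted p = 2.26e-05) and 0.69 at 7 d (adjusted p = 0.000397). Of all genes tested, 8.45% were lower in UC96US23 at 0 h, 17.2% at 4 h, 14.3% at 24 h and 13.6% on day 7. The libraries of the cultivars did not overlap at any time, as was so in this direction for 25.5% of all genes at 0 h, 26.1% at 4 h, 28.3% at 24 h and 27.3% on day 7. The call at 0 h was lost without any 1 of its 5 libraries (highest adjusted p = 0.0595). LsAP2-like1 passed at no time, with log2 differences of 0.26 (interval -0.07 to 0.58), -0.19 (-0.49 to 0.10), 0.32 (0.03 to 0.61) and -0.13 (-0.43 to 0.16). Reads of both cultivars were aligned to 1 reference genome, and whether sequence differences between the cultivars moved these counts was not tested.

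**Figure D4:**
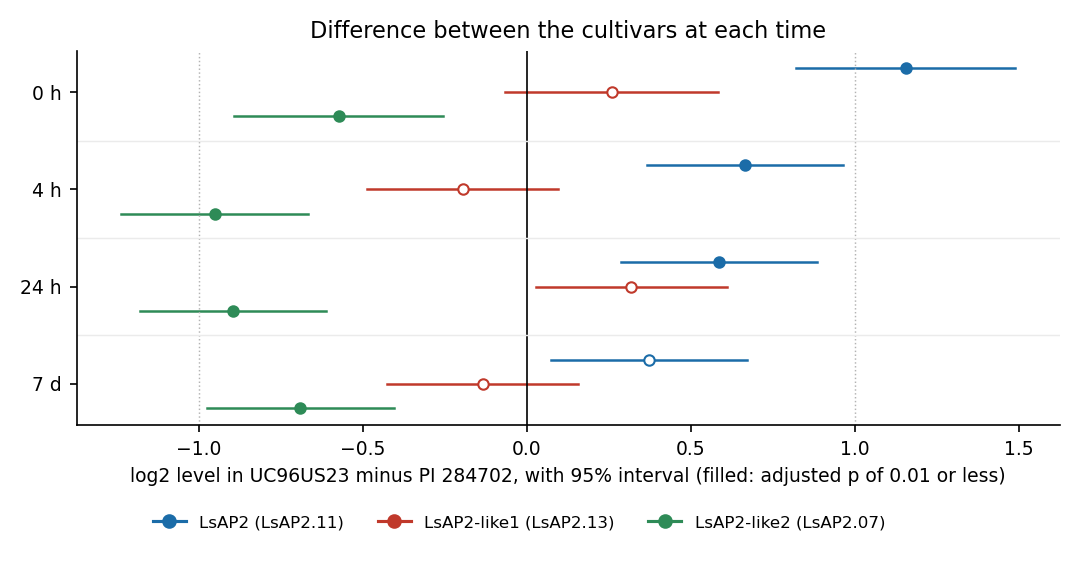
Log2 level in UC96US23 minus that in PI 284702 (horizontal axis) of each gene at the 4 times, with the 95% interval; filled points passed (adjusted p of 0.01 or less) and dotted lines mark a 2-fold difference. LsAP2 lies at 1.15 to 0.37 and LsAP2-like2 at -0.57 to -0.95.

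An interaction term tested whether the cold response differed between the cultivars, and none of the 9 tests passed. For LsAP2 the response in UC96US23 was smaller by 0.49 at 4 h (interval -0.94 to -0.04), 0.57 at 24 h (-1.02 to -0.12) and 0.78 at 7 d (-1.23 to -0.34), with adjusted p = 0.268, 0.179 and 0.0528 (limma). The unadjusted p was below 0.05 at all 3 times, and the shared 0 h libraries enter all of them. Few genes of the whole table passed, 0.166% at 4 h, 0.853% at 24 h and 0.981% at 7 d. For LsAP2-like1 the difference was -0.45 at 4 h, 0.06 at 24 h (interval -0.38 to 0.50) and -0.39 at 7 d, with 1 unadjusted p below 0.05. For LsAP2-like2 it was -0.38, -0.32 (interval -0.75 to 0.10) and -0.12, with 0 below 0.05. The cold response of these genes is therefore not shown to differ between the cultivars.

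The share of each gene in a library was also compared. Of the summed level of the 3 genes per coding length, LsAP2-like1 made up 37.4% ± 1.05 (SD, n = 2) in PI 284702 and 34.9% ± 1.37 (n = 3) in UC96US23 at 0 h. At 24 h of cold it made up 78.1% ± 4.02 and 82.7% ± 0.541, and at 7 d 55.5% ± 2.19 and 53.9% ± 1.45. At 24 h of cold it ranked first per coding length among the 21 AP2 subfamily genes listed in both cultivars, from ranks 6 and 7 at 0 h. LsAP2 led in all 6 libraries of UC96US23 at 0 h and 4 h, and LsAP2-like2 stood above LsAP2 in 6 of the 11 libraries of PI 284702 and in none of the 12 of UC96US23.

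In Salinas the share of LsAP2-like1 was 47.6% ± 1.32 (SD, n = 3) in the control, 59.8% ± 0.958 at 48 h of salt and 55.1% ± 1.85 at 5 h of heat. That of LsAP2 was 37.9% ± 1.61 in the control, 28.4% ± 1.12 at 48 h of salt and 25.1% ± 1.21 at 5 h of heat. A share can grow because the other genes fall. The mean level of LsAP2-like1 itself was 58.8 scaled CPM in the control, 51.7 at 48 h of salt and 55.1 at 5 h of heat. Ratios were taken as differences of log2(value + 0.5). The 3 sampling times of a stress were pooled as 1 group of 9 libraries, so that a difference and its p-value describe no single time. The ratio of LsAP2 to LsAP2-like2 was lower in all 9 heat libraries than in the 3 controls, by 0.72 on the log2 scale (exact permutation test, two-sided, p = 0.00909, the smallest that 9 against 3 allows). How often the ratios of other gene pairs lay apart in this way was not counted. LsAP2 itself fell at each time of heat and LsAP2-like2 passed at none, so this ratio is not an independent result. The ratio of LsAP2-like1 to LsAP2-like2 in the cold was higher than at 0 h by 1.53 in UC96US23 (exact permutation p = 0.00909) and by 1.52 in PI 284702 (exact permutation p = 0.0364, the smallest that 9 against 2 allows). Over the pooled cold libraries this log2 ratio spread from 1.28 to 3.88 in UC96US23 and from 0.434 to 2.74 in PI 284702. Over the 15 ratio tests none stayed below 0.05 after Benjamini-Hochberg adjustment, and the lowest adjusted p was 0.0682.

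**Figure D5:**
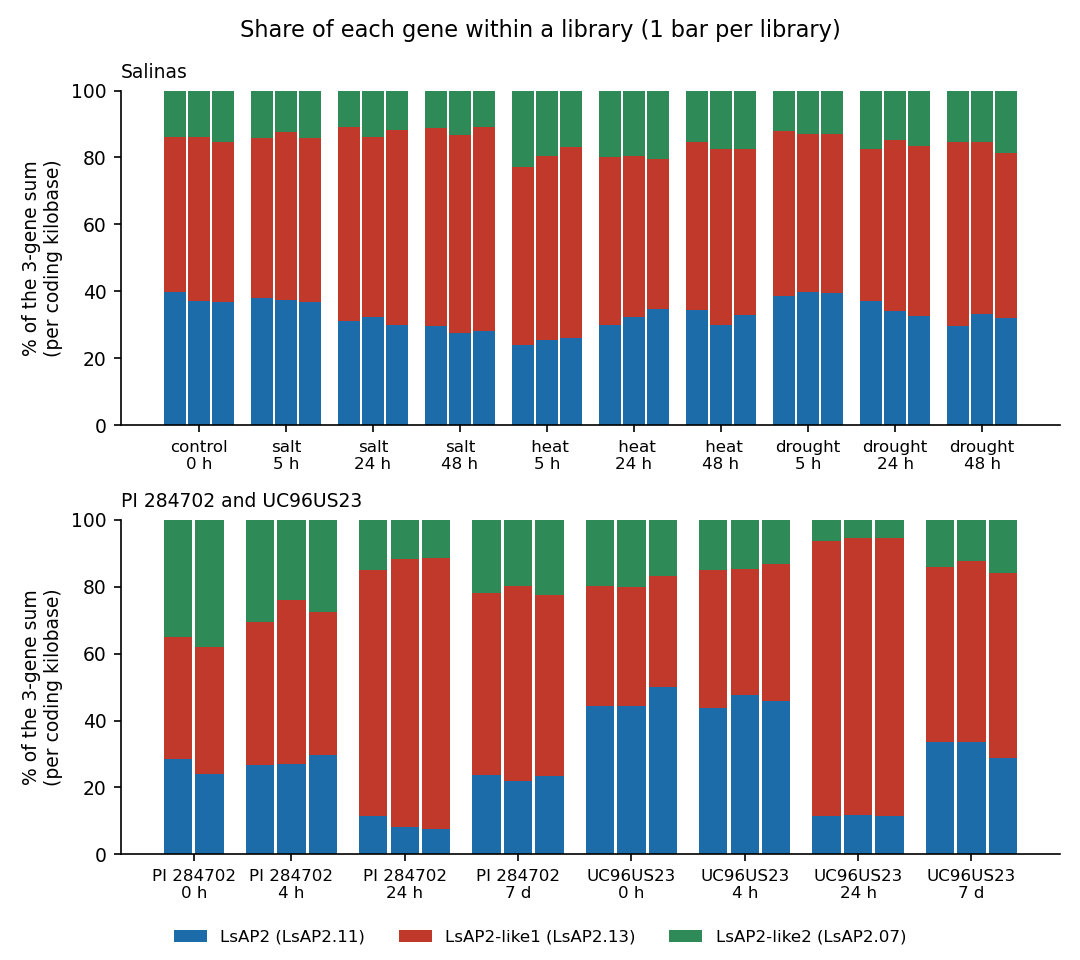
Share of each gene in the summed level of the 3 genes per kilobase of coding length (vertical axis, percent), with 1 stacked bar per library, grouped by condition. LsAP2-like1 fills a mean of 78.1% and 82.7% of the bar after 24 h of cold in PI 284702 and UC96US23, and between 47.6% and 59.8% in the Salinas groups.

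The study's gene table gives 8 further AP2 subfamily genes whose best Arabidopsis match is APETALA2 or TOE1. LsAP2.02 is not among the genes analysed here, and the other 7 were tested. After 48 h of salt, 6 of the 7 fell, against 36.7% of all genes tested, with a median log2 fold change of -0.74 where the median of all genes was -0.01. LsAP2.17 fell by 1.74, LsAP2.24 by 1.60 and LsAP2.03 by 1.39 on the log2 scale, each further than any of the 3 genes above. At 5 h of heat, where LsAP2 fell, LsAP2.03 fell by 0.33 and LsAP2.15 rose by 0.92. Of the 23231 genes tested, 3348 fell and 3925 rose there. LsAP2.15 had a low level, with a mean of 1.31 scaled CPM and at most 39 reads in a control library. None of the 7 passed under drought, where 0.327% to 13.9% of all genes tested did.

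After 24 h of cold, 4 of the 7 relatives rose in PI 284702 and 3 in UC96US23, and none fell. In all, 15.4% and 17.7% of genes tested rose and 11.4% and 18.7% fell in these comparisons. The largest of these log2 rises were 1.47 in LsAP2.17 in PI 284702 and 0.82 in LsAP2.24 in UC96US23, beside 3.12 and 3.18 in LsAP2-like1. LsAP2.17 was also higher in UC96US23 at 0 h, by 1.26 on the log2 scale. LsAP2.15 was listed at 0 in all 12 libraries of UC96US23, a count that allows up to 3 reads (between 0.108 and 0.167 CPM in these libraries). In PI 284702 its means lay between 0.451 and 1.13 CPM, with at most 26 reads in a library. How many other genes were listed at 0 throughout 1 cultivar was not counted here.

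The genes were compared with all others by Pearson's correlation over the 18 group means of log2(value + 0.5), each table centred on its own mean, over 22143 genes tested in both tables. These correlations are descriptive, and the groups share control libraries and normalization. LsAP2-like1 correlated with LsAP2 at r = 0.18 and with LsAP2-like2 at r = 0.29, and LsAP2 with LsAP2-like2 at r = -0.13. The genes most like LsAP2-like1 were Lsat_1_v5_gn_8_128280.2 (r = 0.97), Lsat_1_v5_gn_1_74961.3 and Lsat_1_v5_gn_8_2981.3 (both r = 0.95), of which the first rose by a log2 fold change of 5.45 in PI 284702 and 5.53 in UC96US23 after 24 h of cold. Those most like LsAP2 were Lsat_1_v5_gn_1_39821.1 (r = 0.89), Lsat_1_v5_gn_6_5441.6 (r = 0.88) and Lsat_1_v5_gn_3_48420.1 (r = 0.86). Those most like LsAP2-like2 were Lsat_1_v5_gn_1_67541.2 (r = 0.95), Lsat_1_v5_gn_2_2221.2 (r = 0.94) and Lsat_1_v5_gn_3_52480.1 (r = 0.93).

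Within the AP2/ERF family the closest pattern was that of LsERF080 for LsAP2 (r = 0.81), LsERF012 for LsAP2-like1 (r = 0.84) and LsERF055 for LsAP2-like2 (r = 0.84). LsERF012 is the neighbour of LsAP2-like2, not of LsAP2-like1. It rose by a log2 fold change of 1.92 in PI 284702 and 1.56 in UC96US23 after 24 h of cold (adjusted p = 8.28e-08 and 2.09e-07, limma). LsERF013, the neighbour of LsAP2, fell by 0.70 and by 1.12 there, and LsERF016, the neighbour of LsAP2-like1, was at -0.26 (adjusted p = 0.363) and 0.04 (adjusted p = 0.891).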

How the data were processed

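The authors used STAR 2.5.2 for alignment and featureCounts for counting. The Salinas values they deposited are a signal, namely CPM of a scaled library size (columns sum to between 815104.2 and 1273638.4). The design had assumed plain CPM there, and its test was kept. For PI 284702 and UC96US23 the authors deposited CPM summing to 1000000. In both tables, 100% of values were whole multiples of 1 read within 0.01, which gave the depths. How reads matching several gene copies were counted is not given in the sources used here, so levels of such close copies are uncertain to that extent. Replicates differed by more than counting noise (chi-square per gene between 3.63 and 75.6, the latter between salt 24 h replicates 1 and 2).

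Testing was limited to genes that reached 0.5 in 2 or more libraries, 23231 of 23292 and 23443 of 23933. Values were fitted as log2(value + 0.5) with limma 3.58.1 (lmFit, contrasts.fit, eBayes with trend, R 4.3.3), 1 fit per table, with Benjamini-Hochberg adjustment within each comparison. Thresholds were an adjusted p of 0.01 and, where named, a 2-fold change. Ratios were tested with scipy 1.17.1. Scripts were tested on simulated data. The genes named are the 3 genes, the relatives matched to APETALA2 or TOE1, and for each gene the 3 genes and the AP2/ERF gene of highest correlation. The nearest family genes were added after the data were seen. Members and lists were chosen with earlier results of these data known. Alternatives were pseudocounts of 0.1 and 2, no filter, median centring, libraries scaled to 1000000, only the groups compared, a replicate block, edgeR 4.0.16 (quasi-likelihood, TMM) on whole reads, and each library left out. Gene sequences, lists of pathway genes and tissue markers were not analysed here.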

Additional observations from a re-analysis of the deposited data

How the results depend on the processing

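Direction and call were the same in 1611 values over all alternatives, 36 reversed, 44 lost a call, 11 gained one and 8 moved. The rises of LsAP2-like1 in the cold at 24 h and 7 d in both cultivars, and the falls of LsAP2 under heat and of LsAP2 and LsAP2-like2 under salt at 24 h and 48 h, passed in every alternative run. Values are log2 differences, and the cause of the changes was not tested, except that fewer libraries entered some fits.

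When libraries were scaled to 1000000 reads, LsAP2-like1 passed at 48 h of salt (-0.73), between salt and drought at 24 h (-0.45) and between salt and heat at 48 h (-0.67), its difference between heat and drought at 24 h was lost (-0.35) and that between salt and heat at 24 h reversed (-0.10). LsAP2 passed between salt and heat at 24 h (-0.39). LsAP2-like2 between salt and heat at 5 h lost its call at -0.21 under that scaling, at -0.27 with median centring, with only the groups compared and with the replicate block, and at -0.25 with edgeR. LsAP2-like1 at 4 h of cold in UC96US23 lost its call at 0.49 with a pseudocount of 0.1, with no filter, with only the groups compared and with the replicate block, and at 0.46 with a pseudocount of 2.

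With only the groups compared in the fit, calls were gained by LsAP2-like1 at 24 h of heat (-0.25), LsAP2 at 48 h of drought (-0.25), LsAP2 between salt and drought at 5 h (-0.31) and LsAP2 between the cultivars at 7 d (0.37), and lost by LsAP2 in PI 284702 at 4 h (0.77), LsAP2-like2 in PI 284702 at 24 h (0.56) and LsAP2 between the cultivars at 4 h (0.67). With median centring LsAP2-like2 in PI 284702 at 24 h lost its call (0.45). From 24 h to 7 d of cold in UC96US23 it reversed with median centring (-0.074) and edgeR (-0.10), neither passing.

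Replicate numbers paired few libraries: all correlations of same-numbered deviations were above 0.1 in 0 of 45 group pairs in Salinas and 2 of 28 in the cold table. Those 2 were PI 284702 at 0 h with 4 h (r = 0.16 and 0.15) and with 24 h (r = 0.18 and 0.16), which are compared above. Besides the calls named above, the replicate block lost that of LsAP2-like1 between salt and drought at 48 h (-0.32), and no other call changed.

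Comparisons past both thresholds numbered 1 in Salinas, 2 with a pseudocount of 0.1, median centring or edgeR, 9 with scaling to 1000000, and 0 to 2 with a library left out. In the cold table they numbered 7, and 6 to 8 with a library left out. Without the earliest time the ratio of LsAP2-like1 to LsAP2-like2 under drought was -0.086 and that of LsAP2 to LsAP2-like2 in the cold in UC96US23 -0.18, both reversed.

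Further calls were lost or gained with 1 library left out. Values of LsAP2-like2 then ranged from 0.50 to 0.64 in PI 284702 at 24 h, from -0.63 to -0.52 between the cultivars at 0 h and from -0.34 to -0.21 between salt and heat at 5 h. Those of LsAP2 ranged from 0.57 to 0.97 in PI 284702 at 4 h, from 0.34 to 0.74 there at 24 h and from 0.47 to 0.69 between the cultivars at 24 h. Those of LsAP2-like1 ranged from 0.30 to 0.72 in UC96US23 at 4 h, from -0.51 to -0.35 between heat and drought at 24 h, from -0.43 to -0.17 between heat and drought at 5 h and from -0.37 to -0.24 between salt and drought at 48 h. The 24 h value of LsAP2 in PI 284702 gained a call without 0 h replicate 1 or 24 h replicate 3.

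Values near 0 crossed it with a library left out. For LsAP2-like2 these were UC96US23 at 4 h (-0.21 to 0.074) and from 24 h to 7 d (-0.052 to 0.14), drought at 5 h (-0.080 to 0.042) and heat at 48 h (-0.049 to 0.074). For LsAP2 they were UC96US23 at 24 h (-0.092 to 0.053) and drought at 24 h (-0.040 to 0.055). For LsAP2-like1 they were the cultivars at 4 h (-0.38 to 0.044), the interaction at 24 h (-0.053 to 0.16), heat at 5 h (-0.25 to 0.018), salt at 5 h (-0.085 to 0.027) and 24 h (-0.15 to 0.025), and salt against heat at 5 h (-0.040 to 0.23). Among ratios they were LsAP2 to LsAP2-like2 in UC96US23 (-0.064 to 0.14) and under salt (-0.10 to 0.017), and LsAP2-like1 to LsAP2-like2 under drought (-0.033 to 0.054).

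Depth does not limit the 3 genes, each with at least 160 reads per library. The 2 libraries of PI 284702 at 0 h enter every comparison with that group and all interactions.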
